A study of Monodelphis domestica and Mus musculus with 26 samples.

Results

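Round spermatids are the haploid germ cells that follow the second meiotic division and precede the elongation of the nucleus. The cells described here are the mouse testis cells that carried at least 3 counts summed over 6 spermatid genes (Acrv1, Spaca1, Tex29, Spaca4, Spata46 and Gtsf1l), had less than 1% of their counts in the protamine and transition protein genes Prm1, Prm2, Tnp1 and Tnp2, and had less than 1.5 counts of Ccna1, Aurka and Plk1 together, which are genes of dividing cells. The rule was applied to barcodes with at least 1000 counts and 500 genes. It gave 1251 round spermatids among 25445 kept mouse cells (4.92%) and 47192 kept cells of the 6 single-cell libraries of the series. They numbered 79, 321 and 851 in mouse replicates 1, 2 and 3, which were 0.971%, 4.10% and 8.98% of the kept cells of each library.

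The series compared spermatogenesis of mouse and gray short-tailed opossum in 26 samples, of which 20 were bulk opossum testis libraries and are not used here. The 3 mouse libraries were droplet single-cell RNA-seq of whole testis, dispersed with collagenase and trypsin, from adult males without any treatment or named allele. Replicates 1 and 2 carry the strain label C57BL6/J, replicate 3 carries no strain label, and the shared protocol names adult C57BL6/J males. The labels do not say whether each library came from its own animal, so the tests measure the spread between these libraries.

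In round spermatids the Golgi builds the acrosome, the vesicle of enzymes that a sperm needs to pass the egg coat, while the flagellum grows from the opposite pole of the nucleus. Transcription is intense at this stage and is driven in part by the activator CREM, and many messages are stored for translation after the nucleus condenses. The X and Y chromosomes, silenced in meiotic prophase, carry a set of genes that are switched on again after meiosis.

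The 6 genes of the rule are given as a description, since they chose the cells. Acrv1, which encodes a protein of the acrosomal matrix, was detected in 93.7%, 85.0% and 94.5% of the round spermatids of replicates 1 to 3. In 193, 212 and 279 somatic cells of the same libraries (1% or more of their counts in 16 somatic marker genes), which should lack it, it was detected in 7.25%, 4.72% and 7.89%, at median depths of 2548, 1637 and 2129 counts against 14015, 5383 and 5903 in the round spermatids. Among the 6 genes, detection in round spermatids was lowest for Tex29 in replicates 2 and 3, at 66.7% and 56.5%. Detection in those somatic cells was highest for Gtsf1l in replicate 1 (21.2%) and for Spaca1 in replicates 2 and 3 (14.6% and 11.8%). The median round spermatid showed 6, 6 and 5 of the 6 genes. Just inside the marker limit lay 1, 16 and 89 cells with 3 to under 4 marker counts, and just outside it, with the other 2 conditions met, 4, 17 and 173 cells with 2 to under 3. At the protamine limit, 17, 50 and 65 cells had shares of 0.8% to under 1% and 11, 45 and 66 cells had 1% to under 1.2%. At the limit on Ccna1, Aurka and Plk1, 12, 58 and 91 cells had 1 to under 1.5 counts and 39, 75 and 114 cells had 1.5 to under 2. A protamine limit of 0.5% left 21, 191 and 666 members, a mean of 3.24% of the kept cells against 4.68%, and a limit of 3%, chosen after seeing the data, gave 411, 660 and 1164 (8.59%). The label round spermatids is that of the rule. Acrosome and gamete fusion genes outside the rule, given below, do not test it. The spermatocytes they are compared with were held below 3 marker counts.

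Cells with at least 3 marker counts numbered 2736, 2859 and 2431, a much narrower range than that of the members. Of these, 1760 (64.3%), 1068 (37.4%) and 774 (31.8%) had 1% or more of their counts in Prm1, Prm2, Tnp1 and Tnp2, and the limit on Ccna1, Aurka and Plk1 removed a further 897, 1470 and 806, the larger loss in replicates 2 and 3. The median share of these 4 genes in the somatic cells was 1.59%, 1.25% and 0%, and in the barcodes below the depth minimum it was 6.86%, 4.17% and 2.06%. The part that free protamine RNA had in the number of members was not tested. No barcode of a round spermatid occurred in more than 1 library, although replicates 1 and 2 shared 198 barcodes among all that were deposited.

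**Figure D1:**
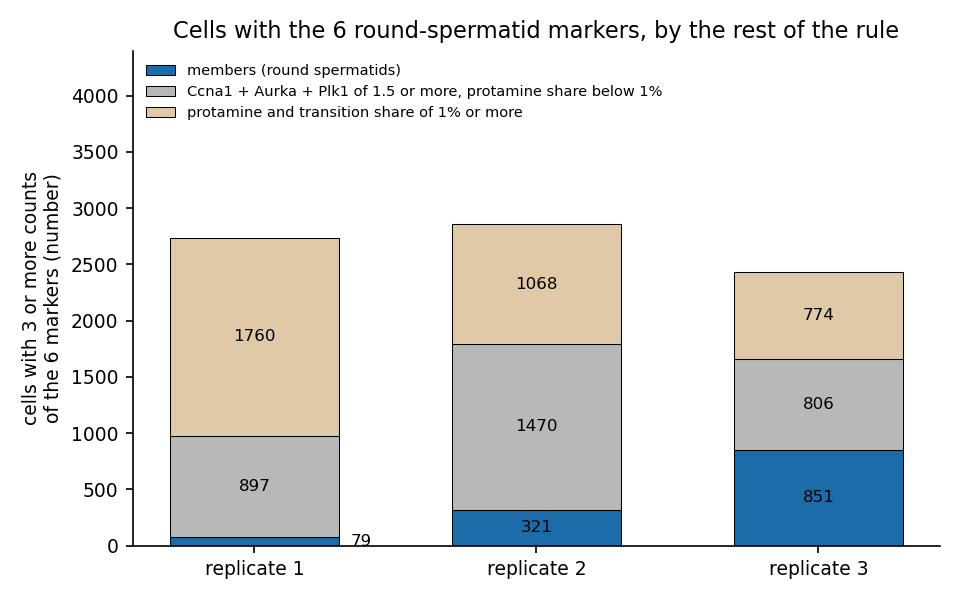
Number of kept cells with 3 or more counts of the 6 markers in each mouse library (y axis), split by the other conditions of the rule. The round spermatids (blue) are 79, 321 and 851 cells of 2736, 2859 and 2431, and the part with a protamine and transition share of 1% or more (beige) is 1760 cells in replicate 1.

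Expression was compared over sums of counts per library, so that 3 libraries are the replicates. The main neighbours were 4984 spermatocyte-gate cells and 13428 protamine-gate cells. Spermatocyte-gate cells were chosen by 8 genes of the meiotic chromosome axis and cohesion or of spermatocytes (such as Sycp1, Sycp3 and Smc1b). They were also held below 3 counts of the marker genes of the rule. Protamine-gate cells had 1% or more of protamine and transition counts. The 3173 marker-positive cells (3 or more marker counts) that the limit on Ccna1, Aurka and Plk1 removed fell in neither class. Protamine-gate cells were 72.7%, 48.6% and 39.1% of the kept cells, with median protamine shares of 4.89%, 3.62% and 17.1%. Somatic cells had median shares of 1.59% and 1.25% in replicates 1 and 2, so this class can hold somatic cells. Levels below are CPM, the counts of a gene scaled to a common total of the summed class, given in the order of replicates 1, 2 and 3. A gene was called where its p from edgeR's quasi-likelihood test, adjusted by Benjamini-Hochberg, lay below 0.05 and its level differed by 1 or more on the log2 scale. Log2 differences are on edgeR's TMM scale and are not ratios of the CPM, which are not TMM-scaled. The median depth was 14015, 5383 and 5903 counts in round spermatids, 13171, 7757 and 2676 in spermatocyte-gate cells and 1856, 2026 and 3091 in protamine-gate cells, of libraries that hold 65263953, 55044965 and 45395185 counts. All classes were cut from the same cells by their expression, so the calls describe classes as gated. The 13 genes of the rule and, against spermatocytes, the 8 genes of that gate received no test.

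Against spermatocyte-gate cells, 3991 of 15185 tested genes were higher in round spermatids (26.3%) and 3653 were lower (24.1%), 50.3% in all. The median log2 difference of all tested genes was -0.28. With the library as a block 9066 genes were called (59.7%), 29.6% higher and 30.1% lower, and without replicate 1 3813, of which 2649 were higher and 1164 lower of 15853 tested. Without replicate 2 3659 were higher and 3000 lower of 16271, and without replicate 3 4013 and 3709 of 14568. Each count of a gene group below stands against these shares, and each gene named with a log2 difference was tested over the whole table. Against spermatocyte-gate cells, the calls of named genes that could be tested held without each replicate in turn except where a gene is said to have lost its call. Ptprc was not tested without replicate 3, and Pgk2, given below by its level, lost its call without replicate 1.

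Most of the called genes of the acrosome were higher in round spermatids than in spermatocyte-gate cells, which were held below 3 marker counts. The part of that limit in the counts of acrosome and fusion genes was not tested. Of 33 tested members, 17 were higher and 2 were lower, with a median log2 difference of 2.34; without replicate 1 the counts were 15 and 1. Fam209 (chr2:172314440-172316255), a partner of Dpy19l2 in fixing the acrosome to the nucleus, read 1734, 1223 and 1145 CPM in round spermatids and 2.30, 14.9 and 11.1 in spermatocyte-gate cells. The lysozyme-like gene Lyzl1 read 736, 713 and 748 CPM against 1.49, 7.79 and 7.63. Spam1 (chr6:24791184-24801049), the sperm hyaluronidase, read 252, 278 and 283 CPM against 0.944, 4.16 and 5.00. For none of these 3 did any library of a class reach the other class. The log2 differences were 7.50 for Fam209 (SE 0.79), 7.38 for Lyzl1 (SE 0.71) and 6.70 for Spam1 (SE 0.65). Eqtn, an acrosomal membrane protein, and Spaca3, another lysozyme-like protein of the acrosome, followed the same order with log2 differences of 7.02 and 6.33.

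Other acrosome genes were already at a high level before meiosis ended. Spink2, an inhibitor of acrosomal protease, read 1425, 1100.2 and 2237 CPM in round spermatids and 1761, 1781 and 1506 in spermatocyte-gate cells (edgeR adjusted p = 0.74). Acr, the acrosin protease, read 209, 272 and 200.1 CPM against 153, 246 and 83.9, and Zpbp, a binding protein of the zona pellucida, 674, 815 and 589 CPM against 424, 641 and 313. The classes overlapped for all 3 genes, and none passed the test. Gopc, a Golgi protein needed to form the acrosome, was lower at 0, 6.10 and 2.11 CPM against 28.9, 28.3 and 53.0, with a log2 difference of -3.29 (edgeR adjusted p = 0.0051). Spata16, another gene of acrosome formation, was also lower at 172, 229.7 and 174 CPM against 517, 591 and 527 and lost its call without replicate 1 and without replicate 2.

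The genes of sperm and egg fusion were higher in 9 of 10 tested members and lower in none, with a median log2 difference of 6.28, and the counts were the same without each replicate in turn. Izumo1 (chr7:45271208-45278247), the sperm protein that binds the egg receptor Juno, read 213, 206 and 200.4 CPM in round spermatids, a spread of a few percent between libraries, and 1.39, 4.91 and 3.94 in spermatocyte-gate cells. Its log2 difference was 6.24 (SE 0.59, edgeR adjusted p = 2.0e-05). Tmem81 and Spaca6, which form a complex with Izumo1, read 74.2, 52.5 and 142 CPM against 0.322, 0.816 and 0.731 (Tmem81) and 116, 72.2 and 106 CPM against 0.721, 1.81 and 2.14 (Spaca6). The member that was not called was Izumo4, at 128, 188 and 131 CPM against 222, 377 and 134, where the classes overlapped.

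Among 21 transcription regulators, 10 were higher and 2 were lower, with a median log2 difference of 1.18; without replicate 1 the counts were 7 and 1, and without replicate 3 13 and 4. Crem read 793, 921 and 602 CPM in round spermatids and 274, 378 and 185 in spermatocyte-gate cells, so the classes did not overlap, and its log2 difference of 1.72 lost its call without replicate 1. Fhl5, the coactivator of CREM in spermatids (also known as ACT), read 754, 538 and 435 CPM against 1.87, 2.17 and 3.89, a log2 difference of 8.16 (SE 0.56, edgeR adjusted p = 1.7e-05). Kif17, the motor that carries this coactivator, read 40.4, 58.1 and 69.9 CPM against 7.22, 9.54 and 6.37. Sox5 (chr6:143774151-144727703) read 537, 555 and 665 CPM against 5.20, 9.74 and 21.2, the zinc-finger gene Klf17 79.5, 44.9 and 35.2 CPM against 0.0321, 0.385 and 0.320, and the ciliary regulator Rfx1 27.2, 24.0 and 42.7 CPM against 2.17, 2.99 and 5.68. Their log2 differences were 6.03, 7.99 and 3.52. Mybl1, the regulator of pachytene genes, was lower at 2.41, 5.34 and 14.4 CPM against 49.9, 50.2 and 109.

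CREM binds the cyclic AMP response element, TGACGTCA, and SOX proteins bind a core that includes ACAATG, so the 250 bases before the annotated start of the canonical transcript (GRCm39, GENCODE vM39) were read for these letters on both strands. Of the 2562 genes called higher than in spermatocytes that had such a promoter, 2.19% held TGACGTCA, against 2.20% of 12157 promoters of tested genes, 2.01% of 3337 of genes called lower and 1.70% of all 21757 promoters of protein-coding genes. For ACAATG the shares were 13.2% of the higher, 5.18% of the lower and 7.62% of the tested genes, and 9.41% of all promoters. The median GC content of these promoters was 52.0% for the higher and 57.2% for the lower genes, and its part in the difference for ACAATG was not tested. The other 11 motifs searched on both strands were TGACGT and the shorter TGACG for CREM, GTTGCCATG and the shorter GTTGCC for RFX factors, AACNGTT for MYB factors, ATTGTT for SOX factors, TATAAA for the TATA box, CCGGAAGT for ETS factors, GGGCGG for SP factors, and CAGTTG and GGCAGTT, which are given no factor here. ATTGTT was found in 10.3% and 5.42% (9.66% of all), CCGGAAGT in 1.83% and 5.75% (2.64% of all), and GGGCGG in 33.8% and 52.3% (36.3% of all).

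Of 104 promoters of listed genes called higher, 4 held TGACGTCA, among them those of Izumo1, Kif17 and Spag4, and 27 held ACAATG. Those of Izumo1 and Spag4 are shown because the genes belong to the fusion and nuclear envelope groups, and Acrv1, a gene of the rule, is shown with its ACAATG match. Each is read 5′ to 3′ on the strand of the gene, all on the plus strand, and capitals mark TGACGTCA or ACAATG, the latter written as CATTGT where it lies on the opposite strand. They lie at chr7:45270958-45271207 (Izumo1), chr2:155906914-155907163 (Spag4) and chr9:36604266-36604515 (Acrv1).
Izumo1: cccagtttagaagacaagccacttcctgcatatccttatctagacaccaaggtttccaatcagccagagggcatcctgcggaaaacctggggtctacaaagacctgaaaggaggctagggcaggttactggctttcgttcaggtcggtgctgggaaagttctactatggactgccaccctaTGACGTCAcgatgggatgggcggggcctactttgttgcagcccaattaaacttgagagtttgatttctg
Spag4: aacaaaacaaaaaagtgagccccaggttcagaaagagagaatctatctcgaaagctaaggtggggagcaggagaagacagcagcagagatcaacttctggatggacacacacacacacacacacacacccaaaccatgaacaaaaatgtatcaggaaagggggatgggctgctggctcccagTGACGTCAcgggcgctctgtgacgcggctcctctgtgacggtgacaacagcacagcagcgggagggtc
Acrv1: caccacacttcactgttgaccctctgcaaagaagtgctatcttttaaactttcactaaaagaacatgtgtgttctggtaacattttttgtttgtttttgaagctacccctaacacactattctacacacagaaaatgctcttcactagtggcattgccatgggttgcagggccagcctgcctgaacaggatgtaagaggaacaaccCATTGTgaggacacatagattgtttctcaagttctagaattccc
In Izumo1 and Spag4 the match starts 69 and 68 bases before the transcript, and in Acrv1 the ACAATG match starts 44 bases before it. Spag4, a SUN-domain protein of the nuclear envelope, read 437, 404 and 341 CPM in round spermatids against 10.5, 20.2 and 4.76 in spermatocyte-gate cells. The matches are letters in these windows, and no binding was measured.

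Of 21 tested genes of germ granules and stored messages, none was higher and 7 were lower, with a median log2 difference of -0.31. Without each replicate in turn none was higher and 7 or 8 were lower, and with the library as a block 1 was higher and 8 were lower. Piwil1, which binds the piRNAs of pachytene cells, read 9.47, 3.06 and 10.4 CPM in round spermatids and 309, 138 and 399 in spermatocyte-gate cells, a log2 difference of -4.82 (SE 0.58, edgeR adjusted p = 6.5e-05). Piwil2 and Tdrd1, further proteins of that pathway, read 2.37, 5.27 and 9.88 CPM against 82.0, 41.1 and 188 (Piwil2) and 19.6, 21.1 and 11.1 CPM against 87.0, 48.9 and 177 (Tdrd1). Dazl, an RNA-binding protein of germ cells, was lower at 8.73, 12.4 and 33.2 CPM against 315, 45.7 and 571. Ybx1, which coats stored messages, stayed abundant at 1925, 2373 and 2636 CPM against 2583, 3119.8 and 2809.7, and Ddx4 at 244, 331 and 404 CPM against 417, 479 and 534, neither passing the test.

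Of 50 tested flagellar genes 12 were higher and 11 were lower, near the shares of all genes (26.3% and 24.1%), so the counts say nothing particular about this list. The median log2 difference was 0.40; without replicate 1 the counts were 8 and 4 (median 0.21), without replicate 2 13 and 7, and without replicate 3 13 and 12 (median 0.24). The genes that were higher included Odf3, an outer dense fiber gene, at 753, 530.1 and 753 CPM against 0.891, 4.35 and 2.46 (log2 difference 8.33), and Ropn1, a protein of the fibrous sheath, at 1395, 1234 and 1481 CPM against 6.56, 19.3 and 18.5. Akap4 and Akap3, anchors of protein kinase A in the sheath, read 664, 594 and 365 CPM against 7.96, 15.5 and 22.8 (Akap4) and 512, 454 and 332 CPM against 11.1, 21.1 and 19.4 (Akap3). The lower genes included axonemal dynein parts, such as Dnah8 at 54.7, 42.6 and 109 CPM against 500.4, 352 and 992 and Dnai2 at 7.11, 9.73 and 4.67 CPM against 93.0, 142 and 55.2, with log2 differences of -2.73 and -3.54. Radial spoke gene Rsph1 fell to 1208, 1631 and 642 CPM from 7393, 6748 and 3835 and lost its call without replicate 1. Meig1, needed to assemble the flagellum, was among the most abundant messages at 7253, 5884 and 5686 CPM and did not pass the test against 5879, 5750.3 and 3533.

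In the list for the manchette, the microtubule skirt that shapes the head, 7 of 23 tested genes were higher and 5 were lower (median log2 difference 0.08, and -0.08 to 0.29 without each replicate in turn; 6 and 1 without replicate 1, 7 and 3 without replicate 2). With all libraries these counts lie near the shares of all genes (26.3% and 24.1%) and say nothing particular about this list. Sun5, which joins the tail to the nucleus, read 405, 346 and 236 CPM against 0.224, 3.80 and 2.01, a log2 difference of 7.65. Clip1, a protein of microtubule ends, read 267, 250.3 and 382 CPM against 15.1, 15.3 and 36.4. Gmcl1 was lower at 42.2, 59.9 and 42.9 CPM against 352, 344 and 377. In the list for chromatin remodelling 9 of 24 tested genes were higher and 7 were lower (median -0.24; 9 and 4 without replicate 1), but the median was 0.63 without replicate 3, with 10 and 6 of 23. The testis-specific linker histones H1f7 and H1f9 read 584, 343 and 386 CPM against 6.04, 2.65 and 5.95 (H1f7) and 1936, 1446 and 1205 CPM against 12.6, 21.1 and 11.8 (H1f9), with log2 differences of 6.84 and 6.93. Chd5, a remodeller of spermatid chromatin, read 122, 85.5 and 269 CPM against 2.35, 3.80 and 15.3. H2ax, the histone of the silenced sex body in spermatocytes, was lower at 15.0, 10.7 and 12.0 CPM against 129, 76.7 and 162.

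Of the 20 spermatid kinases and phosphatases, 9 were higher and 2 were lower (median 0.96; 8 and 1 without replicate 1), and without replicate 3 9 and 4 (median 0.28). The testis-specific serine kinases Tssk1 and Tssk2 read 996, 872 and 579 CPM against 11.1, 23.4 and 7.02 (Tssk1) and 1106, 833 and 699 CPM against 9.96, 16.4 and 12.0 (Tssk2). Tssk5 read 78.3, 89.1 and 44.3 CPM against 0.174, 0.502 and 0.789, a log2 difference of 7.53 (SE 0.66). Tssk6, which acts on condensing chromatin, was still low at 137, 78.0 and 50.3 CPM against 26.0, 13.1 and 18.0, and its log2 difference of 2.53 was 1.34 and not called (edgeR adjusted p = 0.052) with a protamine limit of 0.5%.

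The subunits of CatSper, the calcium channel of the sperm tail, were called in both directions. So were the tested genes as a whole, 26.3% higher and 24.1% lower, and nothing is read from this. In the list of channels 7 of 17 tested genes were higher and 5 were lower, with a median log2 difference of 0.01, and -0.18 to 0.25 without each replicate in turn; without replicate 1 the counts were 7 and 1, and without replicate 2 7 and 4. Pore subunits were among the higher genes, with Catsper1 at 129, 139 and 84.7 CPM against 2.23, 6.32 and 4.24, Catsper3 at 293, 316 and 233 CPM against 1.54, 5.69 and 5.76, and Catsper4 at 229, 176 and 234 CPM against 3.56, 7.57 and 7.04. The auxiliary subunits Efcab9 and Tmem249 were higher too, at 884, 824 and 425 CPM against 12.0, 26.2 and 6.08 and 259.9, 215 and 156 CPM against 0.201, 2.35 and 2.33. Catsper2, the pore subunit that was not called, read 188, 200.3 and 152 CPM against 283, 403 and 186. The 5 lower genes were other auxiliary subunits (Catsperg1, Catsperg2, Catsperd, Catspere1 and Catspere2). Catspere1 read 1.59, 5.66 and 10.2 CPM against 29.5, 17.3 and 156, the other 4 lost their calls without replicate 1, and Catsperd also without replicate 2. Lrrc52, the partner of the potassium channel Kcnu1, read 120.2, 102 and 102 CPM against 0.875, 0.941 and 1.12 (log2 difference 7.10).

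Among 18 metabolic isozymes of germ cells 7 were higher and 2 were lower (median 0.48, and 0.28 without replicate 3; 6 and 1 without replicate 1). Gapdhs, the sperm form of a glycolytic enzyme, read 949, 887 and 499 CPM against 51.2, 42.6 and 34.0, and Spata19, a mitochondrial protein of the sperm midpiece, 1830.2, 1307 and 639.9 CPM against 9.37, 19.8 and 6.25. The monocarboxylate carrier Slc16a7 was higher at 723, 827 and 703 CPM against 55.7, 71.2 and 93.9, and the glucose carrier Slc2a3 was lower at 45.6, 51.5 and 41.7 CPM against 535, 559 and 906, with log2 differences of 3.71 and -3.48. Ldhc, the lactate dehydrogenase of germ cells, was abundant at 7001, 7628 and 4889 CPM and did not pass the test against 9385, 9814 and 3804.

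**Figure D2:**
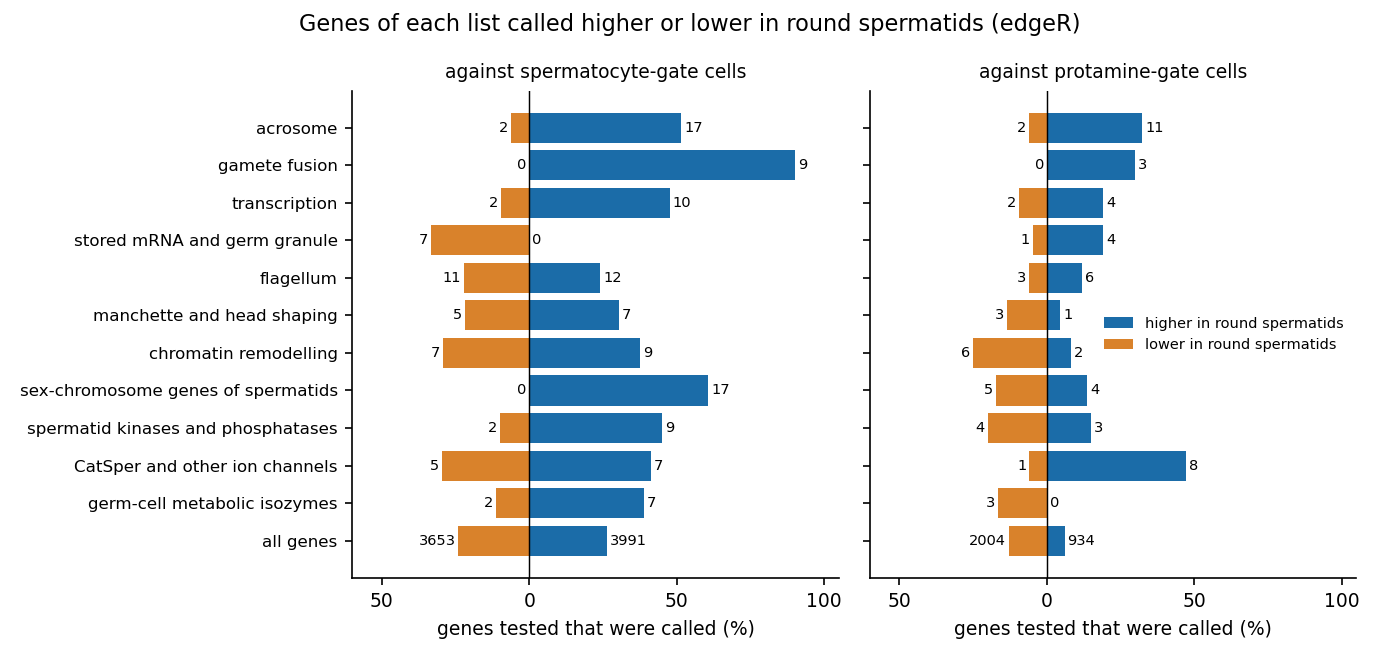
Genes that edgeR called higher (blue, to the right) or lower (orange, to the left) in round spermatids, in percent of the genes tested (x axis) of each list (y axis), with their number beside each bar, against spermatocyte-gate cells (left panel) and protamine-gate cells (right panel). Against spermatocyte-gate cells gamete fusion has 9 of 10 genes higher and stored messages have 7 of 21 lower; the last bar gives all genes.

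The X-linked share, taken of the summed counts without the 13 genes of the rule, was higher in round spermatids than in spermatocytes in every library. It was 1.49%, 1.41% and 1.33% (mean 1.41% ± 0.0822, SD, n = 3) against 0.192%, 0.149% and 0.625% (0.322% ± 0.263) in spermatocyte-gate cells. In protamine-gate cells it was higher again, at 1.81%, 1.75% and 1.84% (1.80% ± 0.0478). The genes left out hold 1% or more of the counts of a protamine-gate cell. Leaving them out raises the X-linked share of that class, and the share of all counts was not computed. Neither pair of classes overlapped, and both differences had an exact permutation p of 0.1 (two-sided), the smallest that 3 values against 3 can give. Both classes come from the same 3 libraries, and the permutation does not use this pairing. Marker-positive cells with Ccna1, Aurka and Plk1 counts of 1.5 or more lay between spermatocytes and round spermatids at 0.793%, 0.587% and 0.856%. Spermatogonia-gate and somatic-gate cells had 1.87% to 2.15% and 3.17% to 3.39%. The part of somatic cells in the share of protamine-gate cells was not tested. Leaving out Tsga8 and Slxl1, the X-linked genes with the highest level, changed the difference from spermatocytes from 1.09 to 0.918 percentage points.

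**Figure D3:**
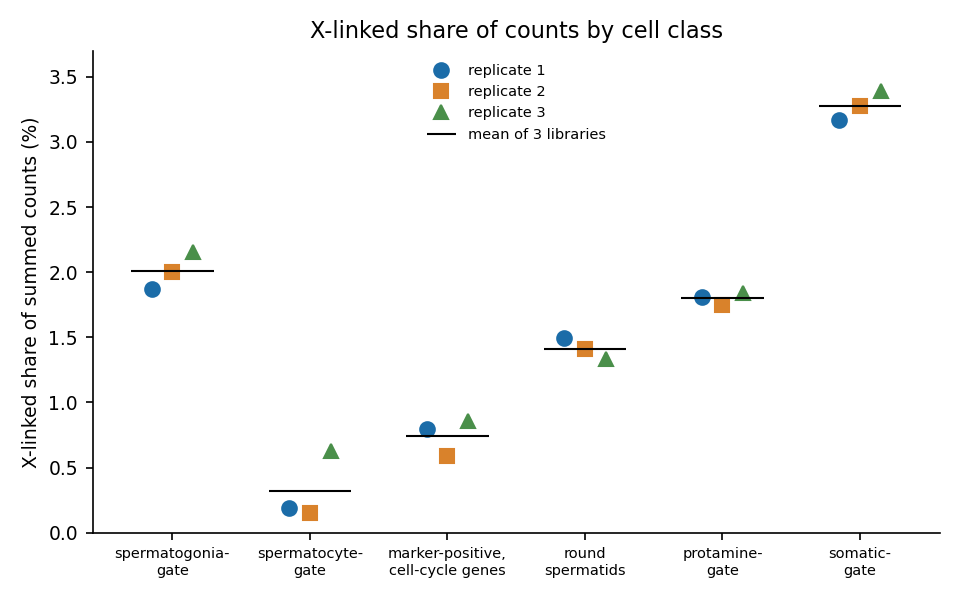
X-linked share of summed counts without the 13 genes of the rule, in percent (y axis), for 6 classes of kept mouse cells (x axis), a point for each library and a line at the mean. Round spermatids lie at 1.33% to 1.49%, above spermatocyte-gate cells (0.149% to 0.625%) and below protamine-gate cells (1.75% to 1.84%).

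Of 1101 X-linked features 430 passed the low-count filter, 210 of them higher and 39 lower than in spermatocyte-gate cells. The median log2 difference was 1.90 against -0.28 for all genes. Without replicate 1 the counts were 163 and 12 (median 1.33), and without replicate 2 196 and 66 of 506 (median 0.92). Without replicate 3 they were 223 and 20 of 393 (median 2.54). A gene could pass the filter through 1 class alone. X-linked genes near 0 in spermatocyte-gate cells were therefore tested only where round spermatids held them. Nothing is read from these counts and medians. Of 40 listed sex-chromosome genes of spermatids 28 passed the same filter, 17 of them higher and none lower (median 2.63). Without replicate 1 the counts were 12 and 0, without replicate 2 16 and 1 of 29, and with the library as a block 19 and 1. Tsga8 (chrX:82530284-82531530) had the highest level, at 1438, 1176 and 1051 CPM against 48.0, 89.1 and 20.6. Slxl1, a member of the X-linked Slx family, read 637, 724 and 393 CPM against 16.8, 43.6 and 10.8. Cypt1, which encodes a cysteine-rich basic nuclear protein, read 496, 388 and 389.6 CPM against 7.89, 10.5 and 4.14, and the ubiquitin enzyme Ube2a 211, 182 and 147 CPM against 3.44, 4.48 and 12.9. The homeobox gene Rhox11 read 34.0, 31.8 and 19.6 CPM against 0.106, 0.187 and 0.223, a log2 difference of 7.50 (SE 0.72). Of 723 Y-linked features 35 passed the same filter, 29 of them higher and 1 lower. Most of the long arm is near-identical copies, and reads from them may be split or dropped. The multicopy gene Sly read 3.59, 3.57 and 15.2 CPM against 0.126, 0.285 and 0.723, highest in replicate 3, and Ssty1 and Rbmy were listed at 0 in round spermatids. Slx, Slxl1, Sly and the Ssx and Cypt genes have close copies too, so their levels are uncertain.

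Every round spermatid held X-linked counts. The median cell had 212, 73.5 and 61.1 X-linked and 8.78, 2.94 and 2.94 Y-linked counts. Spearman correlations between the X-linked and Y-linked share over the 79, 321 and 851 cells were 0.03, 0.17 and -0.23, which share the same depth per cell and few Y-linked counts.

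Of the autosomal copies made from X-linked genes by retroposition, 3 of 10 were higher and 2 lower (2 and 1 without replicate 1); of the X-linked parents, 3 of 8 tested were higher and none lower, and 2 without replicate 1 or replicate 2. Utp14a, an X-linked parent, read 175, 148 and 44.6 CPM against 2.84, 3.30 and 11.6, and the parent Cstf2 read 72.0, 71.6 and 53.9 CPM against 3.09, 5.31 and 18.8. The copy Cstf2t was lower at 0.455, 3.85 and 2.24 CPM against 34.1, 32.1 and 35.1. The copy Ubl4b was higher at 556, 311 and 274 CPM against 16.2, 6.20 and 6.95. The parent Pgk1 read 11.6, 5.42 and 7.24 CPM in round spermatids beside 591, 523 and 503 for its copy Pgk2, and the parent Pdha1 0, 0.448 and 0 CPM beside 237, 312 and 326 for its copy Pdha2.

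By size of the difference, the 10 genes most above spermatocytes (among those of at least 100 CPM on average) were 1700029E06Rik, 4930571N24Rik, Acot10, Ccdc27, 1700001P01Rik, Clec4a2, BC048562, Hsfy2, Odf3 and 1700031L13Rik. Hsfy2, an autosomal relative of the Y-linked heat shock factor, read 433, 317 and 272 CPM against 0.145, 2.55 and 1.12, and Acot10, an acyl-CoA thioesterase, 136, 136 and 74.4 CPM against 0.291, 0.196 and 0.427. BC048562 read 361, 211 and 282 CPM against 0.227, 1.25 and 1.74. The 10 most below were Tcam1, Anp32b, Ube2t, Auts2, Lypd11, Lsm3, Gm50166, Snrpb, Gmnn and Rnf6. Gmnn, the inhibitor of replication licensing, read 4.30, 2.68 and 4.76 CPM against 162, 121 and 203, and Ube2t, a ubiquitin enzyme of DNA repair, 1.70, 2.89 and 7.48 CPM against 353, 233 and 359. The splicing genes Snrpb and Lsm3 read 2.74, 5.21 and 6.43 CPM against 288, 106 and 210.2 (Snrpb) and 2.52, 1.47 and 3.60 CPM against 116, 74.7 and 177 (Lsm3). For none of these named genes did the classes overlap.

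Against protamine-gate cells, which share the same round spermatid sums, 934 of 15496 tested genes were higher in round spermatids (6.03%) and 2004 were lower (12.9%), 19.0% in all, with a median of -0.20. With the library as a block 6023 genes were called (38.9%), 2192 higher (14.1%) and 3831 lower (24.7%). Without replicate 1 no gene was called, with 2865 at an unadjusted p under 0.05. Without replicate 2 399 genes were called, 16 higher and 383 lower of 15971. Without replicate 3 4958 were called, 1632 higher and 3326 lower of 16031. The calls of this comparison were thus not made without replicate 1, the library with 79 members. The comparison also sets cells against a class in which the 15 marker genes of elongating spermatids, gate genes included, took 137563, 120902 and 186685 CPM, against 17456, 12419.7 and 8090.2 CPM in round spermatids. Somatic RNA moved with it too: the 13 Sertoli genes summed to 632, 227 and 172 CPM against 41.2, 40.3 and 22.8, with 9 of 12 tested called lower in round spermatids, and the 10 immune genes to 188, 67.0 and 45.5 CPM against 3.01, 10.2 and 9.47, with 4 of 7 lower. Their part in the other calls was not tested.

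Single genes of several lists were lower in round spermatids than in protamine-gate cells, but the lists did not move one way. In the flagellum list 6 of 50 were higher and 3 lower (median 0.23), against 11 and 5 with the library as a block and 0 and 1 without replicate 2. In the manchette list 1 of 22 was higher and 3 lower (median 0.35), against 3 and 3 with the block and 0 and 1 without replicate 2. H1f7 read 584, 343 and 386 CPM against 1361, 1966 and 1958 in protamine-gate cells, and the histone variant H2al2a, known from the exchange of histones for transition proteins, 111, 51.9 and 106 CPM against 915, 615 and 1460.2. Tssk6 read 137, 78.0 and 50.3 CPM against 1213, 1241 and 1227, a log2 difference of -4.25 (SE 0.45, edgeR adjusted p = 0.0012). Gapdhs read 949, 887 and 499 CPM against 2679, 3078 and 2237, Ift172, of the intraflagellar transport machinery, 122, 69.8 and 127 CPM against 625, 541 and 958, and Spem1, of the manchette, 84.5, 56.2 and 39.2 CPM against 641, 632 and 382. The calls of H1f7 and Gapdhs were lost without replicate 2 as well as without replicate 1. In the chromatin list 2 of 24 were higher and 6 lower, against 7 and 7 with the library as a block, and 0 and 3 without replicate 2. In the isozyme list none of 18 was higher and 3 were lower, against 3 and 4 with the block and none in either direction without replicate 2. The 10 genes most below were Nudt16l2, Paqr5, Acte1, Gm5893, 1700084D21Rik, Agpat2, Bpifa3, Col20a1, 1700003O11Rik and Herpud1. Acte1, an actin of the testis, read 11.7, 9.90 and 8.45 CPM against 469, 453 and 464, Herpud1, a gene of endoplasmic reticulum stress, 9.62, 15.1 and 10.4 CPM against 456, 491 and 404, and Agpat2, a lipid acyltransferase, 8.94, 10.5 and 6.68 CPM against 264, 359.5 and 407.

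A part of the acrosome and channel genes was higher in round spermatids than in protamine-gate cells. In the acrosome list 11 of 34 were higher and 2 lower, in the channel list 8 of 17 and 1, and in the fusion list 3 of 10 and none. Without replicate 2, 1 acrosome gene was higher and none of the channel and fusion genes was, of 16 genes higher in all, and without replicate 1 none was called. With the library as a block the counts were 15 and 4, 9 and 1, and 5 and 0. Without replicate 3 they were 13 and 1, 8 and 0, and 6 and 0. Spam1 read 252, 278 and 283 CPM against 30.6, 37.0 and 25.6, a log2 difference of 2.68 (SE 0.28, edgeR adjusted p = 0.0012), and Tssk5 78.3, 89.1 and 44.3 CPM against 7.27, 10.5 and 2.61. Sox5 read 128, 113 and 132 CPM in protamine-gate cells and Crem 256, 268 and 155, both below every round spermatid library. The calls of Tssk5, Sox5 and Crem in this comparison were lost without replicate 2 as well as without replicate 1. Izumo2, of the fusion list, did not pass the test at 720.5, 486 and 556 CPM against 628, 639 and 646, nor did Fhl5 at 754, 538 and 435 CPM against 439, 495 and 502. The 10 genes most above were Gm20268, 1700041C23Rik, Itgad, Gm36368, Spam1, Il31, Lurap1, Clec4a2, Smco4 and Plin2. Itgad, an integrin subunit, read 81.3, 106 and 159 CPM against 10.5, 15.0 and 10.7, Il31, a cytokine gene, 285, 329 and 489 CPM against 48.5, 54.6 and 27.4, and Plin2, the coat protein of lipid droplets, 193, 150.1 and 151 CPM against 26.8, 24.4 and 14.6.

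**Figure D4:**
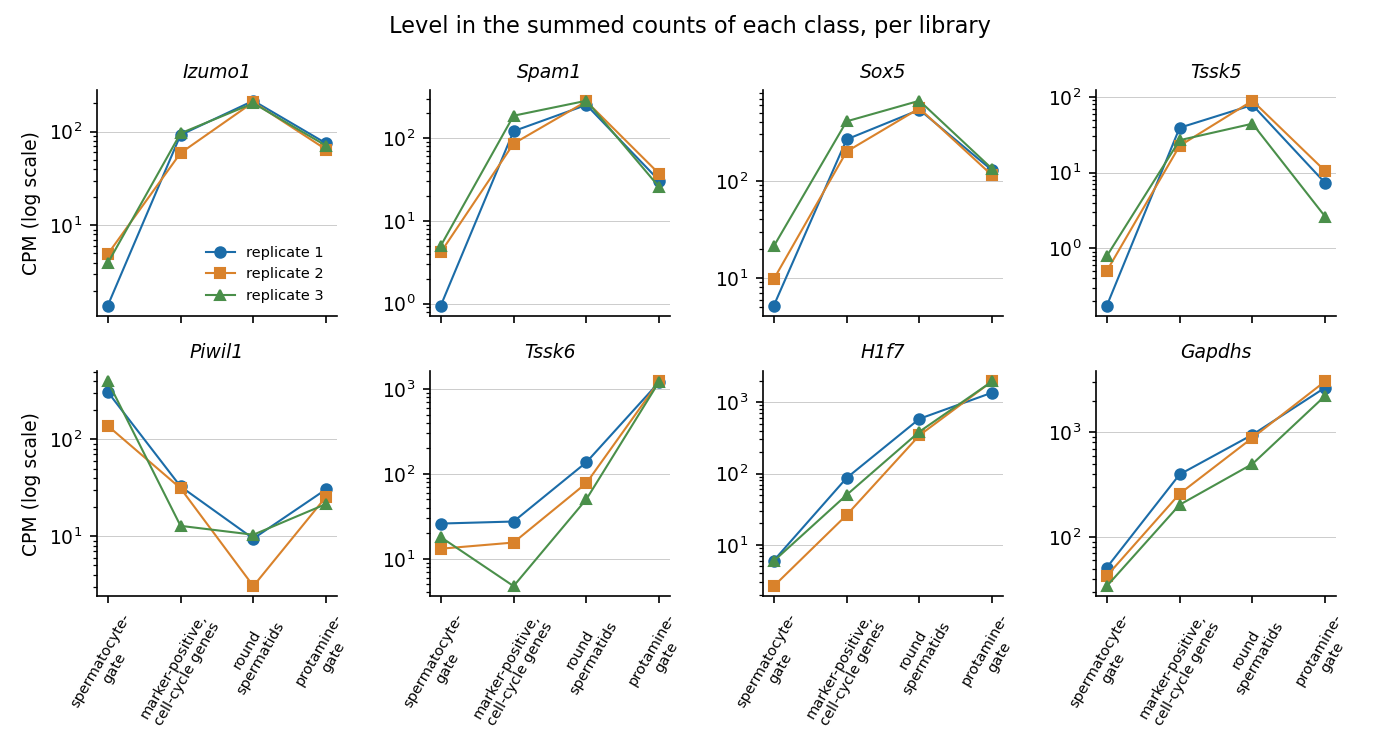
Level of 8 genes in CPM (y axis, log scale) in the summed counts of 4 classes (x axis), a line for each mouse library. Izumo1, Spam1, Sox5 and Tssk5 are highest in round spermatids in each library, Piwil1 is highest in spermatocyte-gate cells, and Tssk6, H1f7 and Gapdhs are highest in protamine-gate cells.

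Against all other kept cells, 2231 of 19056 tested genes were higher (11.7%) and 2866 were lower (15.0%), 26.7% in all, with a median of -0.30. The rule itself sets this contrast, so nothing is read from the counts. With the library as a block 9498 genes were called (49.8%), 19.4% higher and 30.4% lower, without replicate 2 1081, and without replicate 1 none, with 4248 at an unadjusted p under 0.05. The 10 genes most above were 1700029E06Rik, Asb15, Acot10, 4930596D02Rik, Clec4a2, Dscc1, Gm35216, 1700121L03Rik, 1700001P01Rik and Plin2. Asb15, a subunit of a ubiquitin ligase family, read 101, 91.0 and 118 CPM against 14.5, 8.82 and 13.9 in the other cells, and Dscc1, known from sister chromatid cohesion, 244, 200.5 and 176 CPM against 36.0, 23.0 and 24.0. The 10 most below were Anp32b, Ube2t, Tex101, Ncl, Nudt16l2, Acte1, Paqr5, Hmgb2, Herpud1 and Bpifa3. Ncl, nucleolin, read 0, 10.4 and 4.34 CPM against 109.9, 38.6 and 167, and Hmgb2, a chromatin protein of dividing cells, 4.60, 5.77 and 26.0 CPM against 205, 76.0 and 374.

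Markers of other cell types were lower in round spermatids than in the other kept cells for some lists and not for others. The 14 spermatogonia genes together read 51.2, 37.8 and 55.0 CPM in round spermatids and 215, 104 and 230.0 in the other cells. The 22 spermatocyte genes, the 8 of the spermatocyte gate included, read 2405, 2935 and 2841 CPM against 5023, 3624 and 6403 in spermatocyte-gate cells and 3059, 2886 and 3692 in the other cells, where replicate 2 of the round spermatids lay above its other cells. Of the 14 outside the gate, 11 were lower than in spermatocyte-gate cells (7 without replicate 1). The exception called higher was Spag6, an axoneme gene, at 511, 843 and 745 CPM against 13.4, 49.0 and 27.6. The 15 elongating spermatid genes, 4 of the rule included, summed to 17456, 12419.7 and 8090.2 CPM in round spermatids, 2903, 2706 and 1309 in spermatocyte-gate cells and 58464, 39759 and 69799 in the other cells. Of the 11 tested, 10 were higher than in spermatocyte-gate cells and none lower (median log2 difference 4.63; 9 and 0 without replicate 1 or replicate 2). Against protamine-gate cells 2 were higher and 8 lower (median -1.74; none called without replicate 1, 0 and 2 without replicate 2). The part of RNA of elongating spermatids in the other calls was not tested. The Sertoli list summed to 41.2, 40.3 and 22.8 CPM against 382, 151 and 392 in the other cells, below them in every library. Below them too were the immune list at 3.01, 10.2 and 9.47 CPM against 86.7, 27.4 and 55.4, and the peritubular and stromal list at 21.3, 39.6 and 51.9 CPM against 146, 122 and 259. The endothelial list summed to 49.0, 19.5 and 35.2 CPM, above the 34.3, 20.6 and 22.4 of the other cells in replicates 1 and 3. The endothelial gene Flt1, a receptor for vascular growth factor, was higher than in spermatocyte-gate cells at 35.9, 7.50 and 24.5 CPM against 0.436, 0.614 and 1.07, as was Kdr, another such receptor, at 5.36, 9.74 and 2.58 CPM against 0.474, 0.816 and 0.519, while Esam was at 0 and Pecam1 read 0, 1.02 and 0.358 CPM. Leydig genes summed to 13.2, 366 and 3.90 CPM against 845, 1097 and 717 in the other cells. Red blood cell genes summed to 0.992, 347 and 108 CPM against 179.9, 219 and 175, and both sums were highest in replicate 2. The Leydig sum was led by Fabp3 at 4.67, 146 and 2.52 CPM and Ptgds at 2.62, 100.1 and 0 CPM. Both were called higher than in spermatocyte-gate cells with log2 differences of 3.62 and 4.91, although the classes overlapped. Without replicate 2 the differences were -0.77 and -0.76 and not called, so both calls rest on that library, and neither was called without replicate 1. With the library as a block the difference of Fabp3 was 1.40 and not called (edgeR adjusted p = 0.11). Igf1 of the stromal list, Ptprc of the immune list and Gfra1 of the spermatogonia list were also called higher. A spermatocyte-gate cell had a spermatocyte sum above its somatic and spermatogonia sums, while the rule for round spermatids sets no such limit. The gate therefore bears on the calls of somatic and spermatogonia genes against that class. Igf1 read 18.5, 13.5 and 10.3 CPM against 0.611, 0.174 and 0.946, Ptprc 1.72, 2.04 and 2.02 CPM against 0.162, 0 and 0.103, and Gfra1 17.9, 5.14 and 25.9 CPM against 0.701, 0.783 and 4.03. Gfra1 and Kdr lost their calls without replicate 1. The part of doublets or free RNA in these levels was not tested. The doublet score placed 2, 8 and 40 round spermatids among the top 8% of their library, and leaving out all such barcodes gave 7782 calls against spermatocyte-gate cells.

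The mitochondrial share of the counts of round spermatids, also without the 13 genes of the rule, was 0.197%, 0.0708% and 0.378%. In the other kept cells it was 1.15%, 0.388% and 2.75%. The classes did not overlap, though by a small margin between replicate 3 of the round spermatids and replicate 2 of the other cells. The exact permutation p was 0.1 (two-sided), and the difference of -1.22 percentage points was -0.636 without replicate 3. Marker-positive cells with Ccna1, Aurka and Plk1 counts of 1.5 or more had shares of 0.359%, 0.127% and 0.241%. These lay above the round spermatids in replicates 1 and 2, below them in replicate 3, and below the other kept cells in every library. Thinned to 1000 counts, the median round spermatid had 783, 789 and 803 genes against 735, 759 and 773 in the other cells, without overlap and with the same p of 0.1. The marker-positive cells with cell-cycle genes had 770, 774 and 794 and spermatocyte-gate cells 757, 755 and 796, which overlap the round spermatids. Protamine-gate cells had 724, 753 and 571. The rule caps the protamine share of members, so it bears on this contrast, and nothing is read from its p. With a protamine limit of 3%, a limit chosen after seeing the data, the differences from the other cells in thinned genes and in mitochondrial share both had an exact permutation p of 0.2. Unthinned, the median round spermatid had 4320, 2765 and 3091 genes against 1625, 1991 and 1580, at the depths given above and at medians of 2726, 4463 and 2889 counts in the other cells.

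Round spermatids differed in their share of protamine and transition counts. A share below 0.1% was found in 0, 6 and 498 cells of replicates 1 to 3, a share of 0.1% to under 0.3% in 1, 90 and 73, and a share of 0.3% to under 1% in 78, 225 and 280. The medians were 0.637%, 0.426% and 0.0255%, in the same order as the shares in somatic cells given above. An early and a late group by fixed limits could therefore not be compared over 3 libraries, and the cells of each library were split at their own median share. Between the upper and the lower group 0 of 7762 genes were called (0.0%) by edgeR, with 315 at an unadjusted p under 0.05 and 14 calls by DESeq2. These fits left out the pairing of the groups by library, so the 0 is not read as a lack of difference. With the library as a block 427 were called (5.5%), 421 higher in the upper group (5.42%) and 6 lower (0.0773%). The leading ones were 8 mitochondrial genes, such as mt-Co1 at 416, 275 and 1413 CPM in the upper and 30.5, 172 and 106 CPM in the lower group. The upper group was also the shallower in every library, with medians of 10085, 3976 and 1676 counts against 15814, 6854 and 7505 in the lower group. Its mitochondrial share was higher in every library, at 0.416%, 0.0925% and 1.03% against 0.00413%, 0.0554% and 0.0781%. Red blood cell genes summed to 1.34, 449.7 and 326 CPM in the upper and 0.681, 275 and 7.41 CPM in the lower group, and with the block both tested genes of that list and the 1 tested endothelial gene were called higher in the upper group. The part of RNA from other cells in these calls was not tested. Depth and protamine share cannot be told apart in this comparison.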

How the data were processed

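Whole testes of adult mice were dissociated with collagenase and trypsin, and single-cell RNA-seq libraries were made with a droplet 3′ kit, per the labels' protocols. The authors deposited estimated counts per gene and barcode, of which 97.4%, 95.3% and 93.7% of the listed values were not whole numbers in replicates 1 to 3. Cell Ranger 6.0.1 and the mm39 (GRCm39) build are named in the submitters' processing notes, and the step that made the counts fractional is not given in the sources used here. Of 32532 features, 31966 were matched by identifier to GENCODE vM39.

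Counts were summed over the cells of a class in each library, rounded to whole numbers, and compared by edgeR 4.0.16 (R 4.3.3) with TMM scaling, its filter on low counts, the quasi-likelihood test and Benjamini-Hochberg adjustment over all tested genes; DESeq2 1.42.0 was an alternative. Python 3.11.15 and scanpy 1.11.5 were used for the cells. A class was assigned by the largest of 3 gene sums (spermatocyte, spermatogonia, somatic) unless a protamine share of 1% or more, or 3 or more marker counts, placed the cell first. The rule, the gates and the gene lists were chosen with earlier results of these data known. Named genes were the 10 with the largest difference in each direction with at least 100 CPM in the higher class, and members of the lists. Fabp3, Ptgds, Igf1, Ptprc, Gfra1, Kdr, Flt1, Pecam1, Esam and Spag6 come from the lists of cell type markers.

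The 2 sums of a library come from the same sample, so the replicate number pairs them, and the deviations of the paired sums from their class means correlated at 0.222, 0.217 and 0.549 against spermatocyte-gate cells, at 0.173, 0.568 and 0.647 against protamine-gate cells, at 0.354, 0.368 and 0.653 against all other cells and at 0.589, 0.730 and 0.819 between the groups split by protamine share. The doublet caller Scrublet marked 0.0123%, 0.0% and 2.40% of the cells at its own threshold and so did not work in replicates 1 and 2; no cell was removed, and leaving out the top 8% of scores was an alternative. The test was also run on simulated data. Of genes simulated with a log2 difference of 3 between round spermatids and spermatocyte-gate cells it recovered 59.6% of 94. Of those with a difference of 5 it recovered 88.8% of 98, with 11 false calls over 14787 genes. The simulation changed few genes and drew all sums independently, whereas the real sums were paired and 50.3% of genes were called. It therefore gives no error rate for the calls above. Shares of X-linked and mitochondrial counts were taken of the summed counts without the 13 genes of the rule, while thinned counts kept them. These shares and genes per cell were compared by exact two-sided permutation of the class labels of 6 library values. This permutation does not use the pairing by library.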

Additional observations from a re-analysis of the deposited data

How the results depend on the processing

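Of 158 comparisons of single genes, those that were called kept their direction except those of Fabp3 and Ptgds with spermatocyte-gate cells, whose log2 differences ranged from -0.77 to 4.43 and from -0.76 to 6.06 without each replicate in turn, the lowest without replicate 2. Of those not called, Ldhc, Spink2 and Ybx1 against spermatocyte-gate cells and Fhl5 against protamine-gate cells changed sign under at least 1 alternative. The side of the threshold held in all 158 with other size factors (RLE), counts rounded up, no filter on low counts and a depth minimum of 2000 counts and 1000 genes, in all 156 for which DESeq2 gave an adjusted p, and in all 157 that could be fitted without the top 8% of doublet scores. Fabp3 lost its call with the replicate block and with a marker minimum of 5, and no other of these calls changed under either. With a protamine limit of 0.5% 2 lost the call, and with 3%, a limit chosen after seeing the data, 1 gained it. Without replicate 1 59 lost the call, without replicate 2 21 besides those 2, and without replicate 3 1. Genes called ranged from 3813 to 7722 against spermatocyte-gate cells, from 0 to 4958 against protamine-gate cells and from 0 to 5272 against all other cells when each replicate was left out in turn. The replicate block, which pairs the sums of a library, gave 6023 calls against protamine-gate cells and 9498 against all other cells. Between the groups split by protamine share, a comparison chosen after seeing the data, it gave 427 calls, DESeq2 gave 14 and no filter on low counts gave 17, against 0; the cause was not tested. That comparison gave no value at a protamine limit of 0.5%, and it rested on 5 sums with a marker minimum of 5 or the higher depth minimum. The planned comparison of members below 0.1% with those from 0.3% was not run, since replicates 1 and 2 held 0 and 6 cells below 0.1%, under the minimum of 20. The difference in X-linked share ranged from 0.984 to 1.28 percentage points against spermatocyte-gate cells and from -0.422 to -0.325 against protamine-gate cells when each replicate was left out. Replicate 1 had the fewest members (79). Against spermatocyte-gate, protamine-gate and all other cells, leaving it out gave the fewest calls, 3813, 0 and 0. Leaving out replicate 3 gave the most, 7722, 4958 and 5272, against 7644, 2938 and 5097 with all libraries. The cause of these differences was not tested.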
